A study of Mus musculus with 3 samples.

Results

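ABC transporter genes were examined in cells of a murine small cell lung cancer (SCLC) line whose Kdm1a gene, which encodes the histone demethylase LSD1, had been targeted by CRISPR, and in control cells. Members were the rows of the deposited table whose gene symbol has the form Abc, a subfamily letter from a to g, a number and an optional a or b, and 50 of 24523 genes met this rule. They comprised 16 members of subfamily A, 10 of B, 10 of C, 4 of D, 1 of E, 3 of F and 6 of G. Cells of the line that the submitters number 3 were infected with a lentiviral CRISPR vector carrying the Kdm1a guide sg1 or the guide sg2 (the knock-out, with 1 library for each of the 2 guides) or with the vector Lenti-Crispr-V2, for which no guide is named (the control, 1 library). All cells had been kept under puromycin for at least 1 week, and the labels do not name single clones.

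ABC proteins share a domain that binds and hydrolyses ATP. In subfamilies A, B, C, D and G it is joined to membrane-spanning segments, and most of these proteins move lipids, sterols, drugs, conjugates, peptides or metal-linked cofactors across a membrane. Members of E and F have no membrane-spanning part and act on the ribosome. In tumour cells the family is best known for the efflux of chemotherapeutic drugs by the P-glycoproteins, the multidrug resistance-associated proteins and the breast cancer resistance protein.

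Count totals were 44667861 with sg1, 51066078 with sg2 and 43424212 in the control. The labels do not say whether the guides were separate cultures beyond their separate infections, so p-values measure only the spread between these libraries and take the single control library to have that same spread. Kdm1a itself had 3950 counts with sg1, 5716 with sg2 and 11468 in the control (87.5, 113 and 264 CPM, counts scaled to library size). Its log2 fold change of -1.40 (SE 0.404) missed the threshold of edgeR's quasi-likelihood test (adjusted p = 0.0537). Neuroendocrine markers, which define the labelled tumour type, were all detected, with summed levels of 2935 CPM with sg1, 2076 CPM with sg2 and 4260 CPM in the control. Other marker lists differed between the libraries as well. The 8 fibroblast markers summed to 397 and 177 CPM with sg1 and sg2, against 7.58 CPM in the control, although Lum had no count in any library. Of the 7 tested, edgeR called 4 higher, beside 6.33% over all tested genes. The called markers with 4 and 2 control counts passed the filter on low counts through the knock-out libraries alone. The count of 4 is therefore no support for a rise of the list. The 9 macrophage and immune markers summed to 13.2, 8.13 and 4.98 CPM with sg1, with sg2 and in the control, with Adgre1 at 0 in every library. The 5 endothelial markers summed to 10.6 and 24.9 CPM with sg1 and sg2, against 0.576 CPM in the control, most of it Kdr, and the other 4 summed to 0.997, 0.554 and 0.369 CPM with sg1, with sg2 and in the control. The 8 alveolar and club markers summed to 133, 70.7 and 89.0 CPM with the member Abca3 and, over the 7 others, to 64.5 and 25.6 CPM with sg1 and sg2, against 4.70 CPM in the control. Their part in the results on ABC genes was not tested, and in bulk RNA a change in the share of cells cannot be told apart from a change in RNA per cell.

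The first question was which ABC genes this tumour line expresses. Levels of different genes are compared in RPKM, which scales reads by gene length and library size. At least 1 RPKM was reached by 22 members in each of the sg1, sg2 and control libraries, and at least 10 RPKM by 12, 12 and 13. The ribosome-acting members stood at the top. Abcf2, a factor of the translation machinery, had 84.0 and 108.6 RPKM with sg1 and sg2 and 69.9 RPKM in the control. Abce1, which splits ribosomes after termination, had 95.8 and 79.6 RPKM with the guides and 75.1 RPKM in the control. Abcf1, which binds the initiation factor eIF2, had 72.7 and 101.6 RPKM with the guides and 59.97 RPKM in the control. These 3 genes held the first 3 ranks in every library, with a different gene first in sg2 than in the other libraries. Their relative order changed between libraries, so it is not fixed beyond the spread. The fourth rank was taken by Abcb8 with sg1 (21.2 RPKM) and by Abcd3 with sg2 (22.7 RPKM) and in the control (27.6 RPKM). Abcb8 is a mitochondrial transporter, and Abcd3 is the abundant peroxisomal membrane protein that carries branched fatty acids and bile acid precursors. The other end of the order held Abcb11, the bile salt export pump, and Abca16, each with no count in any library.

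**Figure D1:**
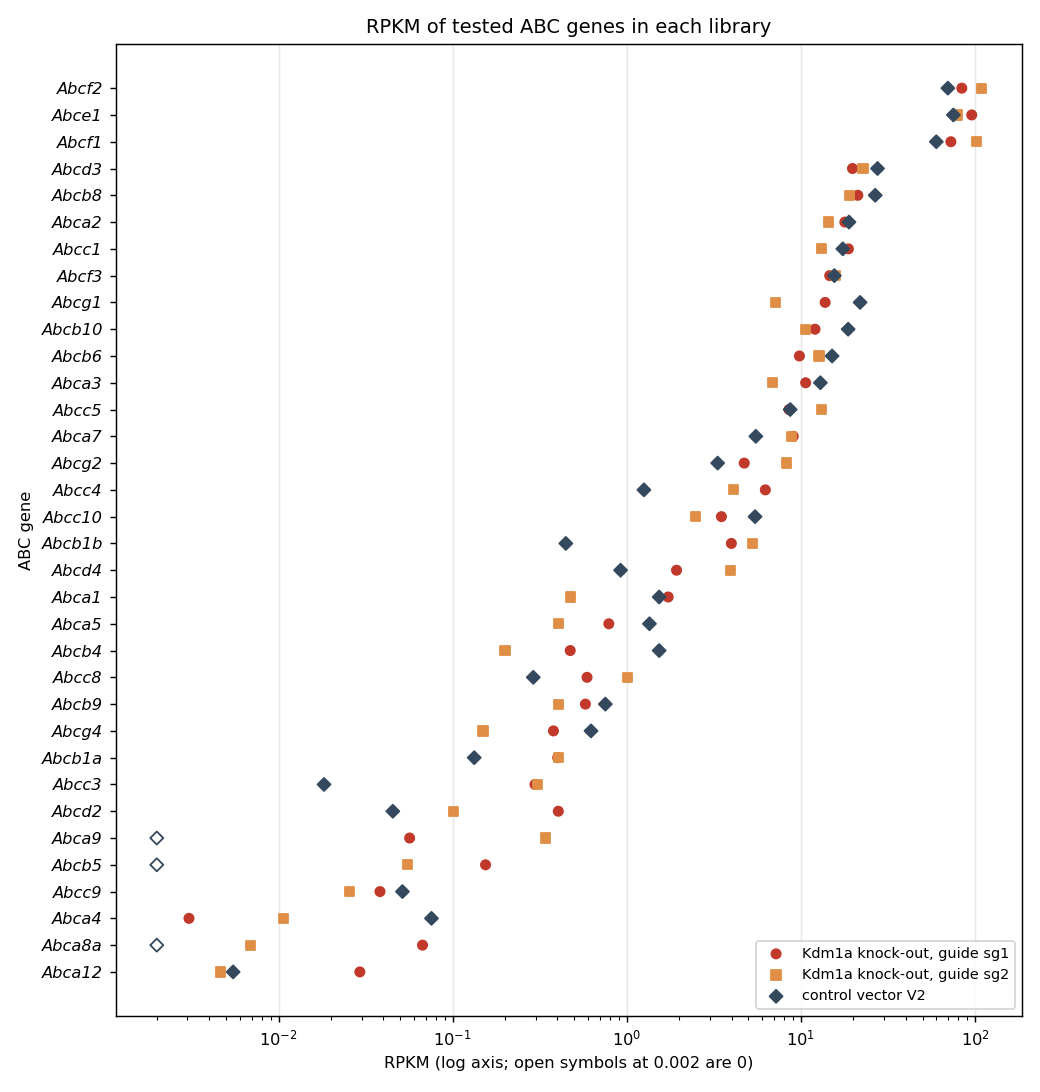
RPKM (log axis) of the ABC genes that were tested and are named here, ordered by their mean, in the sg1 and sg2 knock-out libraries and the control. Abcf2, Abce1 and Abcf1 lie between 59.97 and 108.6 RPKM in all libraries, and the control lies well left of both guides at Abcb1b, Abcc4 and Abcc3.

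Summed over members, the level was nearly equal in the libraries, 1837 CPM with sg1, 1833 CPM with sg2 and 1800 CPM in the control. The 4 members of subfamilies E and F made up 46.7% and 53.2% of this sum with sg1 and sg2, against 39.6% in the control. The 46 members of the other subfamilies summed to 980 and 859 CPM with the guides, against 1087 CPM in the control. With 1 control library these sums carry no test. Subfamily G showed 93.5 and 64.4 CPM with sg1 and sg2 against 139 CPM in the control, most of it Abcg1.

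**Figure D2:**
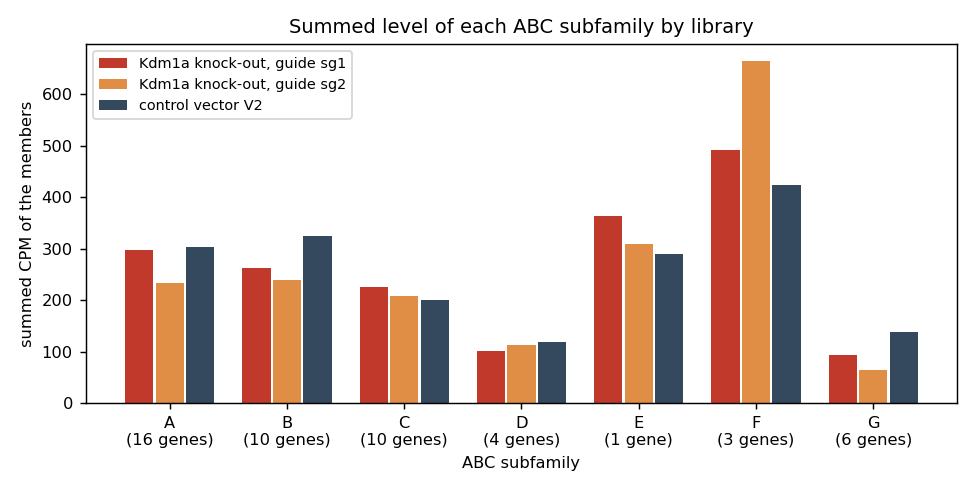
Summed CPM of the members of each ABC subfamily in the sg1 and sg2 knock-out libraries and the control, 1 bar per library and no error bars because each bar is 1 library. Subfamily F stands higher with both guides (492 and 665 CPM) than in the control (424 CPM), and subfamilies A, B, D and G stand lower with both guides.

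Knock-out and control cells were then compared gene by gene. Of the 50 members, 36 passed the filter on low counts and 14 did not, and no gene left out had more than 11 counts in any library. Abcb1b, Abcc4 and Abca9 were called higher in the knock-out by edgeR's quasi-likelihood test at an adjusted p under 0.05, and 0 members were called lower. An unadjusted p under 0.05 in that test was reached by 6 higher and 2 lower members. These were 22.2% of the tested members, beside 18.3% of all tested genes. Over all 15936 genes tested, 8.03% were called, 6.33% higher and 1.7% lower, so 3 calls among 36 tested members, 8.33%, lie at the background. DESeq2's Wald test called the same 3 members and none lower, and limma-voom called Abcb1b alone. Abca9, Abca8a and Abcb5 had no control count and passed the filter through the knock-out libraries alone. The same holds for Abcc3 and Abca12, which had 4 and 2 control counts. The median log2 fold change was 0.09 over the tested members and 0.06 over all tested genes, and the median absolute log2 fold change was 0.79 over members and 0.53 over all tested genes. Both medians of the members are the same with Abca9, Abca8a and Abcb5 at the lower bound of their fold change. With both guides 16 tested members lay above the control and 15 below, and 5 lay on opposite sides.

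The authors' deposited list of higher genes, which holds 7.47% of the table, contains 4 of the 50 members, Abca7, Abcb1b, Abcc4 and Abcd4. Their deposited list of lower genes, which holds 8.78% of the table, contains 5 of the 50 members, Abca5, Abcb4, Abcb10, Abcc10 and Abcg1. Among the 30 members that reached 2 CPM in some library, 6 were at least 2-fold higher than the control with both guides, Abca9, Abcb1a, Abcb1b, Abcc4, Abcd2 and Abcd4. This held for 11.6% of all genes at that level. Of these 6, Abca9, Abcb1a, Abcb1b and Abcd2 were under 2 CPM in the control and reached that level through the knock-out libraries alone, so the count supports nothing about the members. Abcb4 alone was at least 2-fold lower with both guides, against 5.27% of all such genes. It reached 2 CPM through the control library alone (6.32 CPM), so this comparison supports nothing about the members either. Just outside the limit lay Abcc8, at 2.01-fold and 3.51-fold the control by direct ratio but at a log2 value of 0.99 with sg1 once a prior count of 2 was added.

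**Figure D3:**
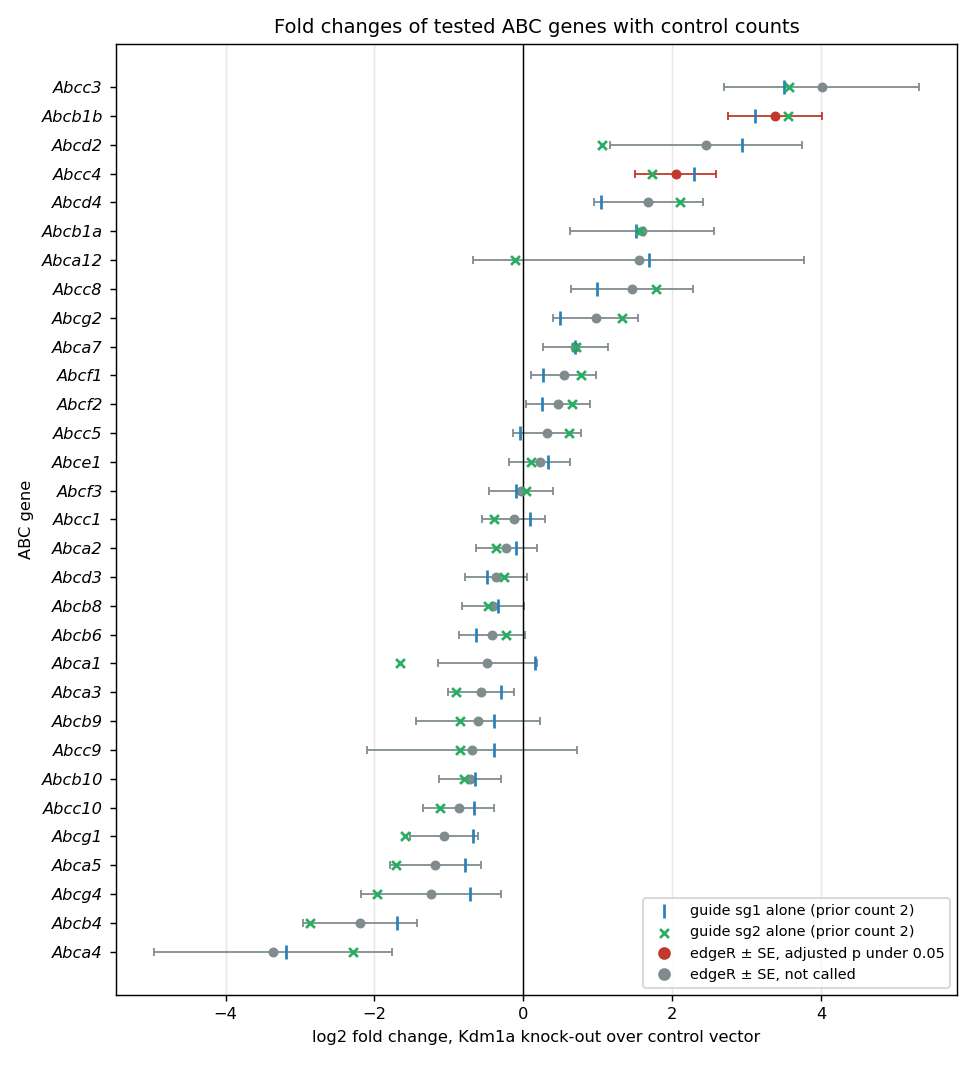
Log2 fold change of the knock-out over the control, with its SE, for the tested ABC genes named here that had control counts, beside the value of each guide alone. Of the genes drawn, Abcb1b and Abcc4 were called. Abcc3 has the highest value, 4.01, with an SE of 1.31 and 4 control counts.

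The drug efflux genes of subfamily B included the member with the lowest adjusted p, Abcb1b. Mice carry a pair of neighbouring genes, Abcb1a and Abcb1b, for the P-glycoprotein that pumps many hydrophobic drugs out of cells, and next to them Abcb4, which moves phosphatidylcholine into bile in the liver. All 3 lie on GRCm38 chromosome 5, at 8567091 to 8748575 (Abcb1a, NM_011076), 8798147 to 8866314 (Abcb1b, NM_011075) and 8893614 to 8959226 (Abcb4, NM_008830). Abcb1b had 781 counts with sg1 and 1187 with sg2, against 85 in the control, or 17.3 and 23.5 CPM against 1.96 CPM. Both knock-out libraries lay far above the control. The mean of 20.4 ± 4.36 CPM (SD, n = 2) was 10.4-fold that of the control, with a log2 fold change of 3.38 (SE 0.629) and an edgeR adjusted p of 0.00430. The ratio to the control was 8.83 with sg1 (95% counting interval 7.05 to 11.2) and 11.98 with sg2 (9.60 to 15.1).

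Abcb1a had 90 and 104 counts with sg1 and sg2 and 29 in the control (1.99, 2.06 and 0.669 CPM). Both guides lay above the control and close to each other, at 2.98 and 3.08 times its level, but the test did not call it (log2 1.59, SE 0.971, edgeR adjusted p = 0.454). Per length, Abcb1a had 0.401 and 0.405 RPKM with the guides, where Abcb1b had 3.99 and 5.29 RPKM; the control had 0.133 RPKM of Abcb1a and 0.447 RPKM of Abcb1b. Abcb4 had 87 and 42 counts with sg1 and sg2, against 274 in the control (1.93 and 0.830 against 6.32 CPM). It was lower with both guides, at 0.305 times the control with sg1 (95% counting interval 0.237 to 0.390) and 0.131 times with sg2 (0.0926 to 0.182), and was not called (log2 -2.20, SE 0.769, edgeR adjusted p = 0.120). It was called lower when no filter on low counts was used (adjusted p = 0.0425; range over the alternatives 0.0425 to 0.261).

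Reads of near-identical copies can be split between them, and how the authors treated such reads is not given in the sources used here. The coding sequences of Abcb1b and Abcb1a were 88.0% identical over 3822 aligned bases in GENCODE transcripts, and their longest identical run was 338 bases. Of the 3707 windows of 125 bases in the coding sequence of Abcb1b, 7.12% occurred unchanged in Abcb1a and 0 in Abcb4, whose identity to Abcb1b was 74.0%. Reads of 125 bases, the shorter read length in the labels, would match both Abcb1a and Abcb1b there.

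**Figure D4:**
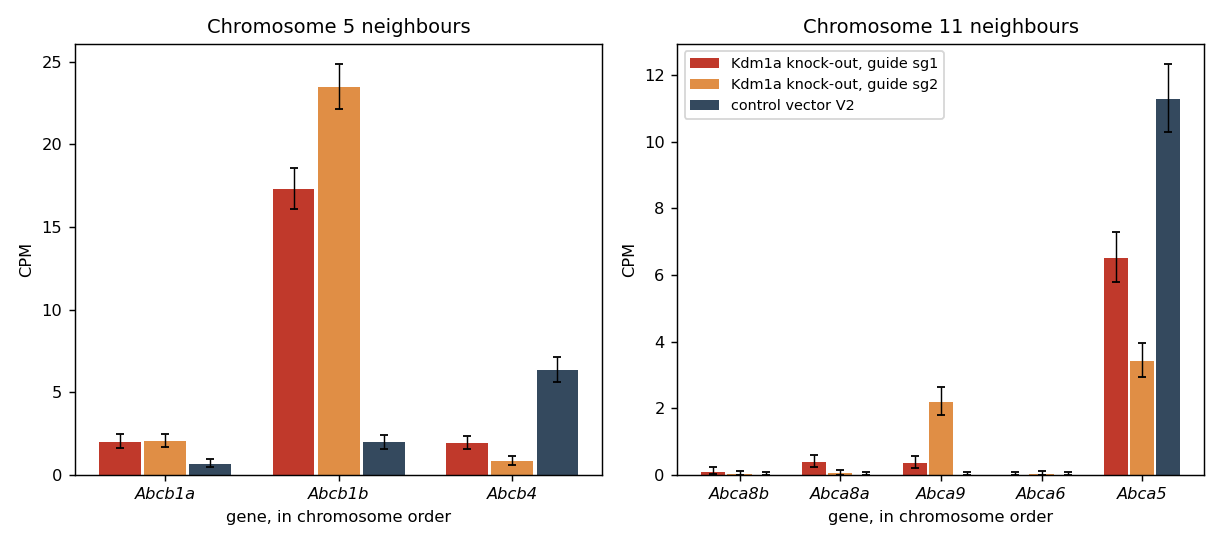
CPM of neighbouring ABC genes on chromosomes 5 and 11 in the sg1 and sg2 knock-out libraries and the control, with 95% exact Poisson intervals of the counts as error bars. Abcb1b reaches 17.3 and 23.5 CPM with the guides beside 1.96 CPM in the control, while Abcb4 and Abca5 are highest in the control.

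The windows around the annotated starts of these neighbours differ in composition, and they are shown because the 3 genes lie side by side and did not follow the same pattern. For Abcc4, the other called gene with control counts, the table holds 2 windows and the more upstream one is printed. Each window runs from 250 bases before to 50 bases after the start of a transcript, which for Abcb4 and Abcc4 lies inside the annotated span of the gene, from RefSeq on GRCm38, at chr5:8797897-8798196 (plus strand, Abcb1b), chr5:8566841-8567140 (plus strand, Abcb1a), chr5:8893471-8893770 (plus strand, Abcb4) and chr14:118706170-118706469 (minus strand, Abcc4, which is described further on). Capitals mark letters that match, on either strand, GGGCGG (GC box), CCAAT (bound by NF-Y), TATAAA (called the TATA box), CACCTG (the E-box bound by Snail factors) or TGANTCA (AP-1 site).
Abcb1b: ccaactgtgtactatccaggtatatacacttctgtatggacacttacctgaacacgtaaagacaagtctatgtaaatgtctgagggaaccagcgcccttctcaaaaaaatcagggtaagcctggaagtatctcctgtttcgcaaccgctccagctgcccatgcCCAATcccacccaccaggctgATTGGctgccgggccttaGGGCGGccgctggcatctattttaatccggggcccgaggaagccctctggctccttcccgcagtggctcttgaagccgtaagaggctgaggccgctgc
Abcb1a: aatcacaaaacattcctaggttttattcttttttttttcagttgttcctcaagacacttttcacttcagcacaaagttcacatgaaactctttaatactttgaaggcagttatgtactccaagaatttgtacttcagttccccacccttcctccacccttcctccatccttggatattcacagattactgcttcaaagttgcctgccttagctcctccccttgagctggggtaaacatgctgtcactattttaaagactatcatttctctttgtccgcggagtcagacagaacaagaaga
Abcb4: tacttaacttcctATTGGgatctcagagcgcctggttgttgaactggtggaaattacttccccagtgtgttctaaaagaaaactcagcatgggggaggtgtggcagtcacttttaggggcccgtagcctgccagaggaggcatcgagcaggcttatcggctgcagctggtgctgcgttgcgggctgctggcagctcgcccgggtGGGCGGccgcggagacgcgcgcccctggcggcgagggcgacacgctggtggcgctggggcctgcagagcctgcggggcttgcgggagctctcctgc
Abcc4: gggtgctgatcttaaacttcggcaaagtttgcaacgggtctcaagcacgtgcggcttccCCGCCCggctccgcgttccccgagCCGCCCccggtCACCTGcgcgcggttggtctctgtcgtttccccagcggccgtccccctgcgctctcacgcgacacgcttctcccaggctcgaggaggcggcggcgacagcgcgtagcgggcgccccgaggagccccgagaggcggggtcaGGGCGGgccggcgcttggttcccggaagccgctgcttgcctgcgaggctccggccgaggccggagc

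The Abcb1b window held 12 CpG and was 55.0% G or C, with 2 matches to CCAAT and 1 to the GC box. The Abcb1a window held 2 CpG and was 40.3% G or C, with no match to the motifs searched. The Abcb4 window held 21 CpG. The Abcc4 window printed held 41 CpG and was 72.7% G or C, and its other window, at chr14:118676882-118677181, held 6 CpG, was 47.3% G or C and had no match to the motifs. Over all 32851 windows of this length in the table the median was 7 CpG and 52.7% G or C. Of all windows, 35.7% held the GC box, 37.4% the CCAAT letters, 13.6% the TATA box, 20.2% the CACCTG E-box and 7.81% the AP-1 letters. Among the 45 windows of the 38 members with an entry, the shares were 46.7%, 35.6%, 15.6%, 37.8% and 0 windows, in the same order of motifs. Overlap between motifs was not removed, some members have several windows, and a match is a run of letters, not a shown binding site.

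The other members of subfamily B mostly serve the mitochondrion or lysosome. Abcb10, which takes part in haem synthesis in the inner mitochondrial membrane, had 51.8 and 46.9 CPM with sg1 and sg2, against 81.2 CPM in the control (edgeR adjusted p = 0.420). Abcb8 had 62.4 and 57.1 CPM with the guides and 79.3 CPM in the control. Abcb6, which binds porphyrins, had 28.7 and 38.0 CPM with the guides and 44.8 CPM in the control. These 3 genes and the lysosomal peptide transporter Abcb9 lay below the control in both knock-out libraries, and none was called (log2 fold changes -0.41 to -0.72, edgeR adjusted p 0.420 to 0.799). Abcb5, a transporter first described in pigment cells, had 27 and 11 counts with sg1 and sg2 and 0 in the control. Its mean over the guides was at least 5.90-fold above the limit that a count of 0 allows (3 counts, 0.0692 CPM in the control library), and it was not called (edgeR adjusted p = 0.181).

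Subfamily C holds the multidrug resistance-associated proteins and the sulphonylurea receptors. Abcc4 (MRP4, NM_001033336), located on chromosome 14 at 118482692 to 118707856, exports cyclic nucleotides, prostaglandins and conjugated drugs. It had 1661 counts with sg1 and 1254 with sg2, against 324 in the control. This gave 36.8 and 24.8 CPM against 7.47 CPM, with both guides well above the control. The mean of 30.8 ± 8.49 CPM (SD, n = 2) was 4.12-fold that of the control (log2 2.04, SE 0.543, edgeR adjusted p = 0.0363). The ratio was 4.93 with sg1 (95% counting interval 4.37 to 5.57) and 3.32 with sg2 (2.94 to 3.76). The call was kept in 5 of 10 alternative analyses and lost in the others, with adjusted p from 0.00246 to 0.243.

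Abcc3 (MRP3), an exporter of glucuronides, had 67 and 79 counts with sg1 and sg2 and 4 in the control. It passed the filter on low counts through the knock-out libraries alone. The guides agree within sampling noise, with a ratio of sg2 to sg1 of 1.05 (95% counting interval 0.750 to 1.48), and the mean of 1.52 ± 0.0550 CPM (SD, n = 2) was 16.5-fold that of the control. It missed the threshold (log2 4.01, SE 1.31, edgeR adjusted p = 0.0916) and passed it without a filter on low counts (adjusted p = 0.0310; range over the alternatives 0.0310 to 0.404). Abcc1 (MRP1), the main exporter of glutathione conjugates, had 111 and 79.3 CPM with sg1 and sg2 and 104 CPM in the control, so that the guides lay on opposite sides of the control. Abcc5 (MRP5), an exporter of nucleotide analogues, had 52.9 and 82.9 CPM with the guides and 54.3 CPM in the control. Abcc10 had 19.9 and 14.5 CPM with the guides and 31.4 CPM in the control. None of these 3 was called (edgeR adjusted p 0.382 to 0.930).

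Abcc8 encodes the sulphonylurea receptor that regulates potassium channels in insulin-secreting and neuroendocrine cells. It had 132 and 258 counts with sg1 and sg2 and 63 in the control, or 2.92, 5.10 and 1.45 CPM, and was not called (log2 1.46, SE 0.820, edgeR adjusted p = 0.400). Its relative Abcc9 had 13, 10 and 17 counts. Of the channel subunits that pair with them, Kcnj11 had 88 and 76 counts with sg1 and sg2 and 20 in the control (log2 1.90, edgeR adjusted p = 0.393), and Kcnj8 had 2, 0 and 0.

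Subfamily A moves lipids, and its members range from broadly expressed genes to genes of single tissues. Abca9 (NM_147220), one of a run of related genes on chromosome 11, lies at 110100749 to 110168274. It had 16 counts with sg1 and 110 with sg2, against 0 in the control. The levels were 0.354 and 2.17 CPM, and the guides differed 6.14-fold from each other (95% counting interval 3.62 to 11.1). Their mean was at least 18.3-fold above the limit of the control, at least 5.12-fold with sg1 alone and at least 31.4-fold with sg2 alone. The edgeR adjusted p was 0.0472, and the call was kept in 3 of 9 alternative analyses (adjusted p from 0.00180 to 0.631). Its neighbours gave fewer counts. Abca8a had 17 and 2 counts with sg1 and sg2 and 0 in the control, Abca8b had 4, 1 and 0, and Abca6 had 0, 1 and 0. Abca5, at the end of the run, was the abundant one, with 6.51 and 3.42 CPM with the guides and 11.3 CPM in the control (log2 -1.18, SE 0.612, edgeR adjusted p = 0.350). The run spans 109932206 (the start of Abca8b) to 110337723 (the end of Abca5) on GRCm38. No window of 125 bases in the coding sequence of Abca9 occurred unchanged in Abca8a, Abca8b or Abca6.

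Abca2, a lipid transporter of endosomes and lysosomes that is prominent in the nervous system, was the most abundant of the subfamily. It had 144 and 119 CPM with sg1 and sg2 and 154 CPM in the control (log2 -0.23, edgeR adjusted p = 0.857). Abca3, which loads surfactant lipids into the lamellar bodies of alveolar type II cells, had 68.6 and 45.1 CPM with the guides and 84.3 CPM in the control (log2 -0.57, edgeR adjusted p = 0.597). Its annotated span overlaps the start of Abca17, which lies on the other strand, on GRCm38. Sftpb and Sftpc, also genes of that cell type, did not follow Abca3. Sftpb had 1166 and 910 counts with the guides against 4 in the control. Sftpc had 1061 and 109 against 30 and was not called (edgeR adjusted p = 0.0536). Sftpd had 1, 0 and 0 counts with sg1, with sg2 and in the control. Of the 7 tested alveolar and club markers, edgeR called 2 higher and 1, Cyp2f2, lower, beside 6.33% and 1.7% over all tested genes. Each called marker passed the filter on low counts only through the libraries in which it was high. These counts of calls therefore say nothing about the list. Abca7, a phospholipid transporter of phagocytes and brain, had 59.5 and 59.7 CPM with the guides and 36.7 CPM in the control. Both guides lay at 1.62 and 1.63 times the control, a difference that was not called (log2 0.70, SE 0.439, edgeR adjusted p = 0.472).

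Abca1, which loads cholesterol and phospholipid onto apolipoprotein A-I, differed between the guides. It had 17.7 CPM with sg1 and 5.002 CPM with sg2, and the control had 15.9 CPM, so that sg1 lay near the control and sg2 at 0.314 times its level (95% counting interval 0.271 to 0.364). The pooled log2 fold change of -0.49 (SE 0.663, edgeR adjusted p = 0.800) describes neither guide. Abca4, the retinoid transporter of photoreceptors, had 1 and 4 counts with the guides and 24 in the control (edgeR adjusted p = 0.295), and Abca12, which carries lipids in the skin, had 11, 2 and 2. Abca13 had 0, 0 and 11 counts, and Abca14, Abca15, Abca16 and Abca17 had at most 4 in any library.

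Subfamily G completes the sterol and drug exporters. Abcg1, which passes cholesterol to high density lipoprotein, had 80.1 CPM with sg1 and 42.7 CPM with sg2, against 129 CPM in the control. Both guides lay below the control, at 0.623 times (95% counting interval 0.597 to 0.650) and 0.332 times (0.316 to 0.349). The difference of log2 -1.07 (SE 0.457) had an unadjusted p of 0.0371 and an edgeR adjusted p of 0.228. Abcg4, its relative in neurons, had 1.37 and 0.554 CPM with the guides and 2.28 CPM in the control (edgeR adjusted p = 0.588). Abcg2, the breast cancer resistance protein, had 531 and 1063 counts with sg1 and sg2 and 363 in the control, or 11.8 and 21.0 CPM against 8.37 CPM. The ratios of 1.41 and 2.51 exceeded counting error, and the difference was not called (log2 0.97, SE 0.576, edgeR adjusted p = 0.437). Abcg5 and Abcg8, which together form the sterol exporter of liver and gut, had 0, 2 and 4 counts and 8, 3 and 0 counts with sg1, with sg2 and in the control, and Abcg3, a gene of rodents, had 2 in each library.

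In the peroxisomal and lysosomal subfamily D, no member was called. Abcd4, which with its partner protein releases vitamin B12 from lysosomes, had 220 and 516 counts with the guides and 102 in the control (4.87, 10.2 and 2.35 CPM; log2 1.68, SE 0.735, edgeR adjusted p = 0.240). Abcd2, an importer of very long chain fatty acids into peroxisomes, had 101 and 29 counts with sg1 and sg2 and 11 in the control (log2 2.46, SE 1.29, edgeR adjusted p = 0.359). Abcd3 had 67.2 and 78.9 CPM with the guides and 94.6 CPM in the control.

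The ribosome-acting genes of E and F were not called. Abce1 had 365 and 310 CPM with sg1 and sg2, against 289 CPM in the control. Abcf1 had 229 and 327 CPM with the guides against 191 CPM in the control, and Abcf2 had 216 and 285 CPM against 182 CPM. Abcf3, a relative of a yeast factor that senses starvation, had 48.0 and 52.9 CPM with the guides and 51.7 CPM in the control. Log2 fold changes ran from -0.03 to 0.54 with SE of 0.408 to 0.434 (edgeR adjusted p 0.615 to 0.984).

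The 2 guides were set beside each other as the spread within the knock-out. Among the 30 tested members at 2 CPM or more, the ratio of sg2 to sg1 was below 1 by more than counting error in 17 and above 1 in 11, and its 95% counting interval held 1 in 2. At least 2-fold apart were Abca1, Abca9, Abcb4, Abcd2, Abcd4 and Abcg4. The matching shares over all genes are not given here, so these counts show no trait of the members. Long genes differed between the guides over the whole table. Over the 2797 tested genes of at least 5000 bases, by the length that counts and RPKM imply, the median log2 ratio of sg2 to sg1 was -0.39, against 0.05 over the 13139 shorter ones. For the 20 tested members at or over that length it was -0.47 and for the 16 shorter members 0.01, and the part of length in any single difference was not tested.

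Genes that work with ABC proteins were examined through lists, each read from the fit over all genes, in which 6.33% of tested genes were called higher and 1.7% lower. Of the 3 ABC superfamily genes whose names lie outside the pattern, the peptide transporter genes Tap1 and Tap2 rose. Tap1 had 905 and 1919 counts with sg1 and sg2 against 119 in the control (10.6-fold, edgeR adjusted p = 0.00449), and Tap2 612 and 1970 against 83 (13.7-fold, edgeR adjusted p = 0.00693). Cftr, a chloride channel, had 180 and 144 counts with the guides and 211 in the control (edgeR adjusted p = 0.799).

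Of 21 tested partners in sterol sensing, uptake, storage and lipoproteins, 6 rose and 0 fell by edgeR, beside 6.33% higher and 1.7% lower over all genes, with a median log2 fold change of 0.44 against 0.06 over all tested genes. Lipa, the lysosomal cholesteryl ester hydrolase, had 15.3 and 26.2 CPM with sg1 and sg2 against 0.738 CPM in the control (edgeR adjusted p = 0.000942), and Lrp1, a lipoprotein receptor, had 59.4 and 35.8 CPM against 7.47 CPM (edgeR adjusted p = 0.00832). The others were the phospholipid transfer protein Pltp (308 and 1161 counts with the guides, 7 in the control), the lipoprotein receptor gene Vldlr (80.5 and 27.05 CPM with the guides, 9.54 CPM in the control), Lcat, which esterifies cholesterol in plasma (33 and 63 counts with the guides, 0 in the control), and Ch25h, which makes 25-hydroxycholesterol (151 and 35 counts with the guides, 0 in the control). Pltp, Lcat and Ch25h passed the filter on low counts through the knock-out libraries alone. The count of 6 is therefore no support for a rise of the list. Calls of Lcat, Vldlr and Ch25h were each lost in at least 4 alternatives. The sterol sensor genes Nr1h2 and Nr1h3, which are known to drive Abca1 and Abcg1, were not called (log2 0.49 and 2.80, edgeR adjusted p = 0.660 and 0.134).

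Of 24 tested regulators and enzymes of xenobiotic and oxidant handling, 6 rose and 0 fell by edgeR, beside 6.33% higher and 1.7% lower over all genes, with a median log2 fold change of 0.95. The glutathione transferase genes Mgst1, Gsta4, Gstt1 and Gstm1, whose products make conjugates that MRP proteins export, were among them. Mgst1 had 26.6 and 27.8 CPM with sg1 and sg2 against 0.300 CPM in the control (edgeR adjusted p = 0.000132). Gsta4 was 76.0-fold and Gstt1 33.4-fold higher (edgeR adjusted p = 0.000307 and 0.000902). Gstm1 had 82.4 and 135 CPM with the guides against 15.2 CPM (edgeR adjusted p = 0.00426), and its gene family has close copies. Nqo1, a quinone reductase, had 229 and 176 counts against 4, and the cytochrome gene Cyp1b1 2445 and 2034 counts against 389. Nqo1 and Gsta4, with 4 and 9 control counts, passed the filter on low counts through the knock-out libraries alone. The count of 6 is therefore no support for a rise of the list. Other glutathione transferase genes of the list, Gstm2, Gstm5 and Gstp1, were not called (log2 1.22, -0.05 and 0.68, edgeR adjusted p = 0.521, 0.979 and 0.570). Nfe2l2, which encodes a transcription factor of the oxidant response, was not called either (log2 1.44, edgeR adjusted p = 0.0707).

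In each of the remaining lists the called genes were few, beside 8.03% over all genes, and say nothing about the list. Of 14 tested drug and anion transporters of other families, 1 rose and 1 fell. Slco2a1, a prostaglandin importer, had 50.7 and 100.5 CPM with sg1 and sg2 against 0.0461 CPM in the control, where it had 2 counts (edgeR adjusted p = 3.5e-05). It passed the filter on low counts through the knock-out libraries alone. Slco5a1, an organic anion transporter relative, fell to 10.7 and 6.15 CPM with the guides, against 31.4 CPM in the control (edgeR adjusted p = 0.0394), a call kept in 3 of 10 alternatives. Of 18 tested peroxisomal partners Cat, which encodes catalase, rose (687 and 2079 counts with the guides, 180 in the control; edgeR adjusted p = 0.0250, a call kept in 4 of 10 alternatives), and of 17 tested mitochondrial partners Tspo, an outer membrane cholesterol- and porphyrin-binding protein, rose (37.7 and 67.6 CPM against 4.98 CPM, edgeR adjusted p = 0.00242). Of 16 tested ribosome partners 0 were called by edgeR and 0 were called in any alternative. In the edgeR test 0 had an unadjusted p under 0.05, beside 18.3% of all tested genes. Pelo, which works with Abce1 to free stalled ribosomes, had a log2 fold change of 0.77 (edgeR adjusted p = 0.568).

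The members not tested were Abca6, Abca8b, Abca13 to Abca17, Abcb11, Abcc2, Abcc6, Abcc12, Abcg3, Abcg5 and Abcg8. Abcc2 (MRP2), the exporter of conjugates into bile, had 4, 5 and 0 counts with sg1, with sg2 and in the control, Abcc6 had 0, 0 and 5, and Abcc12 had 6, 0 and 7. The limit that a 0 allows is 3 counts, and none of these genes was tested.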

How the data were processed

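RNA of 3 libraries was sequenced, and the authors deposited raw read counts per gene and RPKM, which per the file headers stand side by side for 24523 genes. The submitters' processing notes list HTSeq 0.6.1, TopHat2 2.0.12 and Bowtie2 2.2.3, and mm10 as build. Their settings, strand use and treatment of reads with several matches are not stated, so genes with close copies or overlapping partners are uncertain. Of the deposited lists of higher and lower genes only membership was used.

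Counts were tested with edgeR 4.0.16 (R 4.3.3): TMM factors, filterByExpr, and the quasi-likelihood F test on knock-out against control, with Benjamini-Hochberg adjustment over 15936 genes. Only the 2 guides inform the spread (residual degrees of freedom 1, prior 11.5, common coefficient of variation 0.387). CPM use effective library sizes, and SE is the log2 fold change over the square root of F. Counting intervals are exact (95%, conditional binomial for ratios) and, like the limit of 3 counts, cover counting error only, since reads are not independent molecules. Per-guide log2 values used a prior count of 2. Sequences and positions come from RefSeq (GRCm38, matched by Entrez identifier for 50 members) and coding sequences from GENCODE transcripts, aligned with Biopython 1.88.

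The members and lists were chosen with earlier results of these data known. The naming rule took members that edgeR called, that were 2-fold apart from the control with both guides or 4-fold between guides at 2 CPM, the 2 most abundant of each subfamily by RPKM, and close copies. In each partner list it took up to 6 called genes or the 2 largest changes. Some genes that meet it are not reported here by name, and counts and sums include them. The other members, and Nr1h2, Nr1h3, Nfe2l2, Gstm2, Gstm5, Gstp1, Cftr, Kcnj8, Sftpb, Sftpc, Sftpd and Cyp2f2, were named after their values were seen. Alternatives were DESeq2 1.42.0 size factors, upper-quartile factors, library totals alone, the DESeq2 Wald test, no filter, a minimum mean count of 50, limma-voom and limma-trend (limma 3.58.1) on log2(RPKM + 1) and log2(RPKM + 0.1), a loess correction for length (span 0.5), other thresholds, and each guide left out.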

Additional observations from a re-analysis of the deposited data

How the results depend on the processing

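The number of genes called was 1279 with edgeR, 711 with limma-voom, 679 and 31 with limma-trend on log2(RPKM + 0.1) and log2(RPKM + 1), and 779 with the length correction; the cause was not tested. The other alternatives gave 970 to 1892. Among ABC members, 3 were called, against 5 with no filter (Abcb4, lower, and Abcc3, higher, beside the same 3), 1 (Abcb1b) with library totals alone, with a mean count of at least 50, with limma-voom and with log2(RPKM + 0.1), and 0 with log2(RPKM + 1). With both guides, 7 members passed 2-fold in 1 direction, 14 passed 1.5-fold and 2 passed 4-fold. Kdm1a passed the threshold with DESeq2 size factors (log2 -1.41, adjusted p = 0.0498), no filter (-1.39, adjusted p = 0.0166) and the DESeq2 Wald test (-1.41, adjusted p = 0.0201); leaving out a guide gave -1.59 to -1.23. Leaving out a guide, which leaves 1 library against 1 and no test, put 3991 to 5713 genes and 12 to 17 tested members past 2-fold, against 4583 and 15 with both, and 22 to 24 members at 1 RPKM. The log2 direction turned under the length correction for Abca2 (0.20), Abcc1 (0.14) and Abcf3 (0.022). With sg1 or sg2 left out it ranged from -1.66 to 0.16 for Abca1, -0.11 to 1.68 for Abca12, -0.40 to 0.090 for Abcc1, -0.039 to 0.61 for Abcc5 and -0.11 to 0.035 for Abcf3. None of these 6 was called. No paired analysis was possible because the control has 1 library. With 1 control library, depth limits genes of a few counts, and the spread of the control itself was not measured.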
